A study of Bos taurus with 15 samples.

Results

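LDHC, PGK2, ACR, ACRBP, CRISP2, CLGN, DNAJB8, TBC1D21, TDRD9 and GSG1 are genes of male germ cells, and their transcripts were followed here across 15 samples of bovine biceps brachii muscle. They were chosen by name, with every array probe that carries 1 of these names, because earlier results of these data had shown a wide range between animals. The range of each gene over the animals is therefore given as a description and is not tested. The rule found all 10 genes with 12 probes, among 15855 named genes and 21475 probes on the array. Of the 12 probes, 10 are the only or the brighter probe of their gene, and CRISP2 and TDRD9 have a further, dimmer probe each.

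Total RNA of 1 biceps brachii sample per animal, collected at slaughter, was hybridised to an Agilent bovine array of oligonucleotide probes in a single colour. The prednisolone group held 8 animals, numbered P25 to P32, that received the synthetic glucocorticoid prednisolone orally, 30 mg per head every day over 35 days, and the design text calls them cows. The control group held 7 animals, C17, C18 and C20 to C24, each labelled CONTROL, although the treatment text filed with them describes the growth promoters Finaplix and Revalor and the glucocorticoid dexamethasone. Per the labels' protocols, RNA of the prednisolone group was extracted with TRIzol and cleaned with an RNeasy MinElute kit, while RNA of the control group was extracted with an RNeasy Mini kit. The group and the extraction method cannot be told apart. The labels state no age or breed.

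The genes act at several steps of sperm formation, from spermatocytes to mature sperm. Spermatocytes and spermatids replace several widely used enzymes by germ-cell forms, among them the lactate dehydrogenase subunit LDHC and the phosphoglycerate kinase PGK2, which serve the glycolysis on which sperm movement draws. The acrosome, a secretory vesicle over the sperm nucleus, holds the serine protease acrosin (ACR) and the protein that binds its precursor (ACRBP), and proteins of the sperm surface fold with the help of germ-cell chaperones such as calmegin (CLGN). These genes are known for expression in testis and are not part of the usual programme of skeletal muscle fibres.

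A level here is the log2 intensity of a probe after each array was shifted to the same 75th percentile. Scanner flags were used for the 8 prednisolone arrays, where they marked 65.0% to 72.6% of probes as well above background. The highest level of any probe without that flag was 4.35, and this value serves below as the detection level for all animals. It was chosen after the data had been seen, and it comes from prednisolone arrays alone. The lowest level with the flag was between 1.20 (P31) and 1.46 (P26) on these arrays, so a level under 4.35 can still carry the flag. On these arrays 0 of the 12 probes were saturated. The labelled tissue was checked against 18 markers of skeletal muscle fibres, of which 15 were measured. All 15 lay well above background on 8 of 8 prednisolone arrays, and their mean level ran from 15.74 to 16.40 in prednisolone animals and from 15.70 to 16.41 in control animals.

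All 10 genes had their highest levels in a few animals of both groups, and 9 of them were under the detection level in at least 4 animals or had no value there, while ACRBP was over it in 14 of 15. The level of every gene was highest in the control animal C20 and next highest in the prednisolone animal P31. All 10 genes lay over the detection level in P30 and P31 among prednisolone animals and in C20, C22, C23 and C24 among controls. The other prednisolone animals had 8 genes over that level in P32, 3 in P29, 1 each in P25, P26 and P28, and 0 in P27. The other controls had 8 in C21, 6 in C17 and 5 in C18. In a bulk sample, fewer cells of a type and less RNA per cell cannot be told apart.

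**Figure D1:**
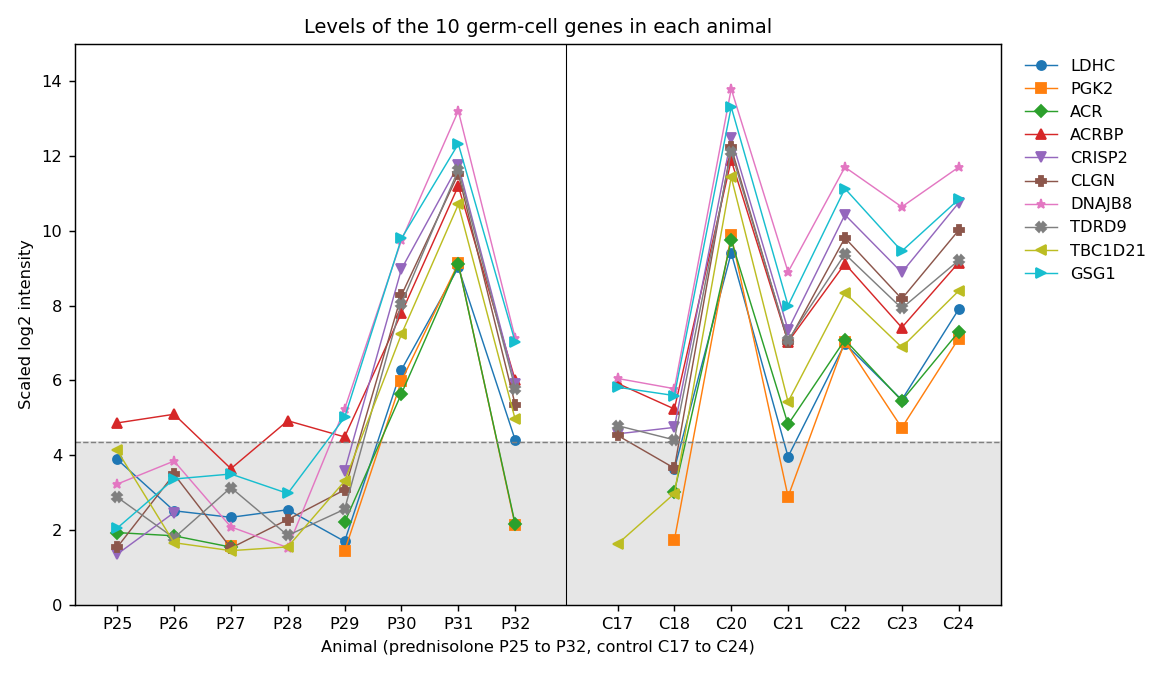
Scaled log2 intensity of the brightest probe of each of the 10 genes (vertical axis) in each animal (horizontal axis), prednisolone animals on the left and control animals on the right. Points are single arrays, lines only join the points of a gene, and the grey area lies under the detection level of 4.35. All 10 genes peak in P31 and C20, and most points of P25 to P28 lie in the grey area.

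The germ-cell enzymes were near background in most prednisolone animals. LDHC, the lactate dehydrogenase subunit of spermatocytes and sperm, ran from 1.70 in P29 to 9.02 in P31 around a median of 3.22 in prednisolone animals. In the 6 control animals with a value it ran from 3.63 in C18 to 9.41 in C20 around a median of 6.23. The scanner flagged LDHC as well above background on 4 of 8 prednisolone arrays, and the groups overlapped over most of their range. PGK2, the autosomal phosphoglycerate kinase that germ cells use while the X-linked PGK1 is silent, had values in 5 prednisolone animals, at 1.59 in P27, 1.44 in P29, 5.99 in P30, 9.13 in P31 and 2.12 in P32. It ran from 1.73 in C18 to 9.88 in C20 around a median of 5.89 in 6 control animals. Only P30 and P31 of the prednisolone animals exceeded the detection level for PGK2, against 4 controls. In C20 the intensity was 33.4 times the detection level for LDHC and 46.1 times for PGK2, which are lower bounds for the contrast with animals under that level.

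Acrosomal proteins followed the same order of animals. ACR, the trypsin-like protease released when the sperm meets the egg coat, ran from 1.54 in P27 to 9.11 in P31 around a median of 2.16 in 7 prednisolone animals. It ran from 3.02 in C18 to 9.75 in C20 around a median of 6.27 in 6 control animals. Apart from P30 and P31, all measured prednisolone values of ACR lay under every measured control value. These prednisolone values, and that of C18, were under the detection level, and P28 and C17 had no value, so this order is not interpreted. ACRBP, which keeps proacrosin in its inactive store, ran from 3.64 in P27 to 11.20 in P31 around a median of 5.01 in prednisolone animals and from 5.24 in C18 to 11.89 in C20 around a median of 7.42 in controls. ACRBP was flagged well above background on 7 of 8 prednisolone arrays and exceeded the detection level in all 7 controls, so most of its lower values are measured levels rather than bounds. CRISP2, a cysteine-rich secretory protein of the acrosome and the sperm tail, ran from 1.35 in P25 to 11.76 in P31 around a median of 4.75 in 6 prednisolone animals. In the 7 controls it ran from 4.57 in C17 to 12.49 in C20 around a median of 8.89. CRISP2 was over the detection level in every control, whereas P30, P31 and P32 were the only prednisolone animals over it.

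The chaperones had wide ranges too. CLGN, a lectin chaperone of the endoplasmic reticulum that in mice is needed for sperm surface proteins to fold, ran from 1.52 in P27 to 11.53 in P31 around a median of 3.28 in prednisolone animals. In controls it ran from 3.65 in C18 to 12.23 in C20 around a median of 8.18. DNAJB8, a testis-rich member of the HSP40 co-chaperones, ran from 1.53 in P28 to 13.21 in P31 around a median of 4.54 in prednisolone animals. In controls it ran from 5.78 in C18 to 13.80 in C20 around a median of 10.64. DNAJB8 exceeded the detection level in all 7 controls and in 4 prednisolone animals, and 7 of 8 prednisolone animals lay below the control median. Its intensity in C20 was 698 times the detection level.

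The remaining genes serve other steps of germ-cell development. TDRD9, a helicase with a Tudor domain that in mice silences transposons together with piRNAs, ran from 1.79 in P26 to 11.64 in P31 around a median of 3.01 in prednisolone animals and from 4.41 in C18 to 12.12 in C20 around a median of 7.93 in controls. TBC1D21, a testis protein with the domain of Rab GTPase activators, ran from 1.45 in P27 to 10.71 in P31 around a median of 3.72 in prednisolone animals and from 1.63 in C17 to 11.44 in C20 around a median of 6.89 in controls. GSG1, named for its expression in germ cells, ran from 2.05 in P25 to 12.33 in P31 around a median of 4.25 in prednisolone animals and from 5.60 in C18 to 13.31 in C20 around a median of 9.46 in controls. The control animal C17 was under the detection level for TBC1D21 (1.63) but over it for TDRD9 (4.79) and GSG1 (5.82). GSG1 exceeded that level in 4 prednisolone animals and TDRD9 in 3, and both exceeded it in all 7 controls.

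CRISP2 and TDRD9 had a further probe each, and both were dim. The array annotation describes that of CRISP2 as CRISP2, while the RefSeq gene table gives its gene identifier as CRISP3, which lies near CRISP2. It ran from 1.47 in P25 to 5.59 in P31 around a median of 3.49 in 7 prednisolone animals and from 1.70 in C21 to 6.23 in C20 around a median of 3.77 in controls, and it was well above background on 1 of 8 prednisolone arrays. The other TDRD9 probe had values in 4 prednisolone animals, at 1.35 in P25, 1.35 in P28, 1.42 in P30 and 3.02 in P31, and in 4 controls it ran from 1.36 in C23 to 3.42 in C20 around a median of 1.87. It was well above background on 0 of 8 prednisolone arrays, so its differences are not interpreted. The brighter TDRD9 probe takes its name from the array description alone, whereas the dim one is tied to the gene by its gene identifier. C20 and P31 were the 2 highest animals for both dim probes too. For the dim TDRD9 probe both of these values lay under the detection level, so its order of animals is not interpreted either.

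The animals stood in nearly the same order for each gene. C20 was first and P31 second for 10 of 10 genes, and the third place fell to C24 for 7 genes and to C22 for 3. P30 took the fifth place for 9 genes and C23 the sixth for 9, and the seventh fell to C21 for 9 genes and to P32 for the remaining gene. Over the 45 pairs of genes the Pearson correlation across animals had a median of 0.96 (0.91 to 0.997) and the Spearman correlation a median of 0.96. Without C20 and P31, the animals farthest from the median, the median Pearson correlation was 0.94 (0.87 to 0.995). CRISP2 and GSG1 were the closest pair, at 0.997 over 13 animals. The points of these correlations share their arrays and the choice of genes, so they are descriptions and carry no test.

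Set against the mean of the complete members, each gene had its own closeness. The measure is the correlation with the mean centred profile of the 6 genes with a value on all 15 arrays (TDRD9, DNAJB8, GSG1, ACRBP, TBC1D21 and CLGN), leaving out the gene itself. It was 0.99 for CRISP2 and CLGN and 0.95 for LDHC and TBC1D21, the lowest of the 10. For the further probes it was 0.70 for CRISP2 and 0.75 for TDRD9, and for CRISP2 it was 0.41 without C20 and P31. Over the animals above the detection level, the slope of each gene on this profile lay between 0.82 for LDHC and 1.13 for PGK2, except for ACRBP, which had a slope of 0.66. The slope of ACRBP takes in 14 animals, while those of the other genes take in 6 to 11 of them, so the slopes are not over the same animals.

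For most pairs of bright animals the difference was of similar size in all 10 genes. P31 was lower than C20 in each gene, by 0.67 ± 0.16 on the log2 scale on average (SD over 10 genes), and P31 exceeded P30 by 3.18 ± 0.37, a 9.06-fold difference in intensity. P31 exceeded P32 by 5.60 ± 0.53 over the 8 genes above the detection level in both. Among controls, C20 exceeded C22 by 2.53 ± 0.35 and C22 exceeded C23 by 1.60 ± 0.31, while C22 and C24 differed by -0.13 ± 0.33. P30 and C23 differed by 0.28 ± 0.55, with both signs among the genes (-0.89 to 1.26). The 15 muscle markers differed by 0.15 ± 0.62 between P31 and C20, by -0.00079 ± 0.70 between P31 and P30 and by -0.0635 ± 0.41 between C20 and C22. They differed by 0.54 ± 0.91 between P31 and P32, by 0.27 ± 0.33 between C22 and C23, by 0.19 ± 0.29 between C22 and C24 and by 0.36 ± 1.27 between P30 and C23, the last a larger mean than that of the germ-cell genes. These pairs of animals were chosen after their values had been seen, and the SDs are over genes, which are not replicates.

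**Figure D2:**
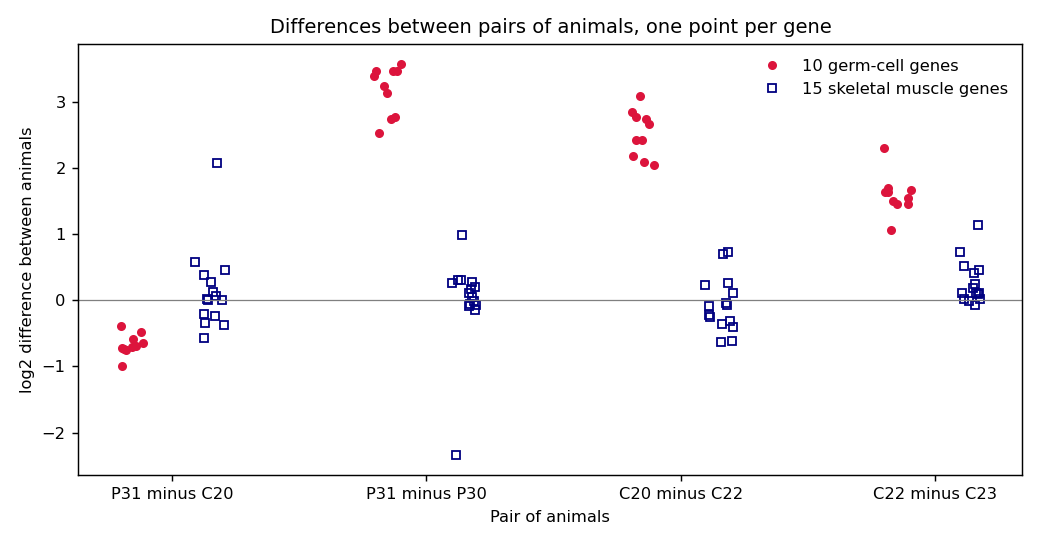
Difference of scaled log2 intensity between 2 animals (vertical axis) for 4 pairs of animals (horizontal axis), with a filled point for each of the 10 germ-cell genes and an open square for each of 15 skeletal muscle markers. The germ-cell genes lie between -0.99 and -0.39 for P31 minus C20 and between 2.53 and 3.58 for P31 minus P30, while most muscle markers lie near 0.

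Replicate spots gave similar levels. Each probe is spotted at 2 places on the array, and in the 81 combinations of gene and array with both spots measured and a mean level over 4.35 the spots differed by a median of 0.0983 (at most 1.04, in CRISP2). The slides of the prednisolone arrays, numbered here from the file headers, held 1 or 2 of these animals each. P30 and P29 lay on the same slide, where 10 of the 10 genes exceeded the detection level in P30, against 3 in P29. For these 3 genes, ACRBP, DNAJB8 and GSG1, P30 was higher by 3.32, 4.51 and 4.79 in that order. The other slides with a pair of these animals held P25 with P26 and P27 with P28, animals with 0 or 1 gene over the detection level, so no difference is given for them. Slides of the control arrays were not analysed here, so no fit with slide as a block could be made.

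Relatives of these genes that most cells use varied far less between animals. LDHA and LDHB, the muscle and heart forms of lactate dehydrogenase, had ranges of 1.20 and 1.41 over the 15 animals, and PGK1 had a range of 1.22, against 7.72 for LDHC and 8.44 for PGK2. CANX, the calnexin of most cells and relative of CLGN, had a range of 0.86, and CALR, a soluble chaperone of the same fold, had 1.03. The co-chaperones DNAJB6 and DNAJB2 had ranges of 1.88 and 0.83, against 12.27 for DNAJB8. All 7 relatives were well above background on 8 of 8 prednisolone arrays. Their correlations with the mean profile of the germ-cell genes lay between -0.23 for LDHB and 0.59 for DNAJB6. The group differences of these 7 genes lay between -0.15 and 0.14, with 5 negative. The mean of the 7 genes correlated with the germ-cell profile at 0.65, and at 0.31 without C20 and P31.

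**Figure D3:**
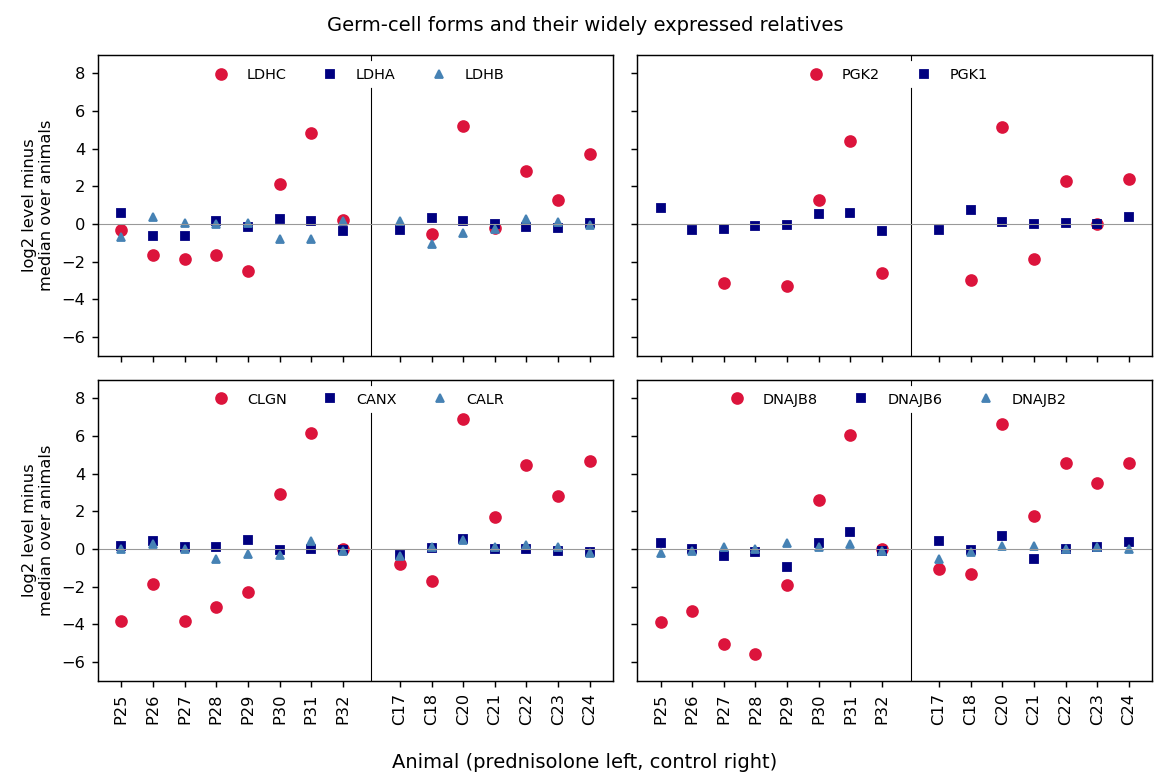
Scaled log2 intensity minus the median over animals (vertical axes) in each animal, prednisolone on the left and control on the right, for 4 germ-cell genes (red circles) and their widely expressed relatives (blue squares and triangles). The red circles spread over 7.72 to 12.27 log2 units, while the relatives stay within 1.88.

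The wider programme of late germ cells varied with the germ-cell genes, as read from lists of other genes that were drawn up with earlier results of these data known. A correlation over 0.9 with the mean profile of the 6 complete genes, which leaves out LDHC, PGK2, ACR and CRISP2, was held by 173 of 14324 probes with a value on all arrays (1.21%), these 6 included, and the median correlation was -0.11. Among genes with at least 8 values, it was held by 17 of 23 genes of spermatid chromatin and the sperm tail, 12 of 19 acrosome genes, 6 of 11 germ-cell chaperones, 6 of 16 genes of the piRNA pathway and Tudor family and 2 of 11 germ-cell metabolic isoforms. The list names are approximate. The list of spermatid chromatin and tail was drawn up with the meiotic genes SYCP1, SYCP3, SYCE1 and TEX11 in it. The chaperone list includes the widely expressed BAG5 and STIP1, and the metabolic list includes HK1, SLC2A3 and PPP1CC. Only 14 of the spermatid chromatin and tail genes and 7 of the acrosome genes had a value on all arrays. The list counts and the share of 1.21% are thus over unlike sets. PRM1, a protamine that packs sperm DNA, had the widest range of the genes in these lists, 15.59, and TNP1, a transition protein that precedes the protamines, had a range of 12.63. PRM2 was well above background on 0 of 8 prednisolone arrays and stayed at 1.61 or lower in all 15 animals. The mean level of the 14 complete genes of this list ran from 4.60 to 10.91 in prednisolone animals and from 6.02 to 11.63 in controls, and its correlation with that profile was 0.996.

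The lists also held genes with narrower ranges or weaker correlations. In the acrosome list the actin-like proteins ACTL7B and ACTL7A had ranges of 9.94 and 8.28 and correlations of 0.99 and 0.97, while SPACA9 ranged over 3.22 with a correlation of 0.80. SPAM1, SPACA3 and CAPZA3 were well above background on 0 of 8 prednisolone arrays. Among chaperones, the germ-cell chaperonin subunit CCT6B had a range of 5.90 and a correlation of 0.94, and HSPA4L had 5.41 and 0.88. The co-chaperone BAG5 ranged over 0.73 only, with a correlation of -0.65. In the piRNA list the germ-cell helicase DDX4 had a range of 7.91 and a correlation of 0.97, and TDRD6 had 6.24 and 0.95, while TDRD3, a Tudor protein of many tissues, ranged over 0.55 with a correlation of 0.23. Among metabolic isoforms, the adenylate kinase AK8 ranged over 6.07 with a correlation of 0.80 and the glycerol kinase GK2 over 5.10 with 0.88, whereas the phosphatase PPP1CC ranged over 0.78 with -0.16.

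Markers of earlier germ cells and of the somatic cells of the testis behaved unevenly. Of 8 measured spermatogonial markers 0 had a correlation over 0.9. The mean level of the 6 complete ones was 5.34 to 6.20 in prednisolone animals and 5.28 to 6.10 in controls. DAZL, an RNA-binding protein of germ cells, was the closest of them at 0.79 and was well above background on 1 of 8 prednisolone arrays, while UCHL1 stood at -0.44 and ZBTB16 at 0.35. Of 6 measured Leydig cell markers 1 had a correlation over 0.9, and the 6 correlations ran from -0.64 for LHCGR to 0.98. INSL3, the peptide hormone of Leydig cells, followed the profile at 0.98 and was highest in P31, at 15.11, against 5.24 in P28. STAR and CYP17A1, which take part in steroid synthesis, stood at 0.57 and 0.50, and LHCGR, the receptor for luteinising hormone, was well above background on 0 of 8 prednisolone arrays. The mean of the 3 complete Leydig markers ran from 5.70 to 10.98 in prednisolone animals and from 6.14 to 10.27 in controls and correlated with the profile at 0.90. Among 10 Sertoli cell markers, 1 had a correlation over 0.9, at 0.93. INHA stood at -0.38, INHBB at 0.52 and AMH at -0.43, and WT1 was well above background on 0 of 8 prednisolone arrays. The mean of the 5 complete Sertoli markers ran from 7.18 to 7.89 in prednisolone animals and from 7.47 to 7.77 in controls. That mean correlated with the profile at -0.29, but it does not stand for all 10 markers. Over the 5 Leydig markers above the detection level in both, P31 exceeded C20 by 0.96 ± 0.44, opposite in sign to the 10 germ-cell genes. In the other pairs of bright animals given above, 3 such markers had the same sign as the germ-cell genes. P31 exceeded P30 by 3.51 ± 2.06 and P32 by 4.03 ± 3.11, C20 exceeded C22 by 1.98 ± 1.60, and C22 exceeded C23 by 0.83 ± 0.39. P30 and C23 differed by 0.013 ± 0.036, and C22 and C24 by -0.75 ± 0.82. Of 10 epididymis markers 5 were measured, 0 of them on all arrays, and 0 had a correlation over 0.9. The part of these cell types in the levels of the 10 genes was not tested.

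Transcripts of other tissues were highest in animals that only partly coincided with those above. The mean of 7 complete thymocyte markers was highest in C17 (11.23), followed by P30 (10.21) and P32 (9.60), and in C20 it was 8.52. It ran from 5.32 to 10.21 in prednisolone animals and from 5.59 to 11.23 in controls, and its correlation with the germ-cell profile was 0.11. DNTT, the terminal transferase of developing lymphocytes, ran from 1.51 in P26 to 13.77 in C17, CD8B ranged over 7.10 and CD1E over 1.98. The mean of 4 complete hepatocyte markers ran from 5.69 in P30 to 7.53 in P26 in prednisolone animals and from 5.69 in C17 to 6.73 in C21 in controls, with a correlation of -0.10. Fibrinogen FGB ranged over 5.52, TTR over 4.55 and CYP2E1 over 2.41. Of the muscle markers, TNNT3 ranged over 5.25, TTN over 3.26 and DES over 0.43, and the list mean correlated with the germ-cell profile at 0.22.

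**Figure D4:**
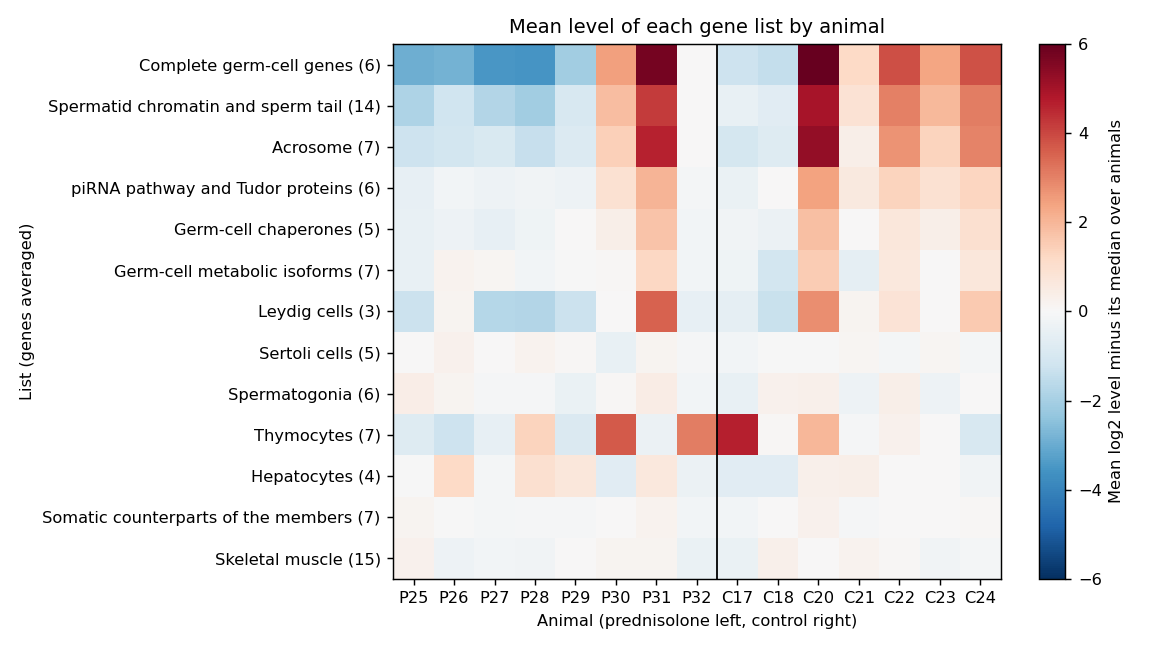
Mean log2 level of each gene list minus its median over animals (colour) in each animal (horizontal axis), prednisolone left and control right of the line, with the number of genes averaged in brackets. The top row averages the 6 of the 10 genes with a value on all arrays. The rows from there to the germ-cell chaperones are darkest red in P31 and C20, the Leydig row likewise, and the thymocyte row is darkest in C17, P30 and P32.

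The genes whose levels were most like those of the 10 included proteins of the sperm head, neck and tail. Over all 15 animals and among named probes outside the 10 genes, the highest correlations with the mean profile were those of SPATA6, a protein of the sperm neck in mice (0.997), ACTRT2, an actin-related protein of the sperm head (0.996), GSTT4, a glutathione transferase (0.995), RGS22, a regulator of G protein signalling (0.995), ODF2, a protein of the outer dense fibres of the tail (0.994), and HDGFL1, a relative of hepatoma-derived growth factor (0.993). SPATA6 ran from 5.46 in P27 to 13.66 in P31 in prednisolone animals and from 7.12 in C18 to 14.52 in C20 in controls. Without C20 and P31 these 6 correlations were between 0.990 and 0.995. For single members, the closest gene was the transition protein TNP2 for CRISP2 (0.996, 13 animals) and for GSG1 (0.993), TNP1 for DNAJB8 (0.992), SPATA6 for CLGN (0.996), SPATA3 for TDRD9 (0.991), and the spermatid linker histone H1-9 for TBC1D21 (0.980). It was the kinase TSSK6 for PGK2 (0.995, 11 animals), ODAD3 for ACR (0.993, 13 animals), PKIB for ACRBP (0.987) and C6H4orf17 for LDHC (0.983, 14 animals). In the RefSeq gene table, used for names and order only, PGK2 and CRISP2 lie on the same chromosome with 4 genes between them, CRISP3 among these, and the other pairs of the 10 that share a chromosome have at least 215 genes between them.

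The spread of the 10 genes between animals was wide for this array. Their SDs over animals ran from 2.49 for ACRBP to 4.06 for DNAJB8, where the median SD over all probes was 0.43. Only 12 of 21469 probes had a larger SD than DNAJB8, and 256 had a larger SD than ACRBP. Of 223 complete probes with a range over 6, 114 had a correlation over 0.9 with the profile of the 6 complete genes, these 6 included. The genes were chosen for this spread.

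Between the groups, all 10 genes had lower means in prednisolone animals than in controls, and none passed the test. DNAJB8 averaged 5.75 ± 4.05 in prednisolone animals and 9.80 ± 3.03 in controls (SD, n = 8 and 7), a limma difference of -4.05 (95% interval -7.76 to -0.33). GSG1 averaged 5.76 ± 3.66 in prednisolone animals and 9.17 ± 2.87 in controls, a difference of -3.41 (-6.82 to -0.00296). CLGN differed by -3.29 (-6.74 to 0.16), TDRD9 by -3.13 (-6.40 to 0.13), CRISP2 by -2.78 (-6.68 to 1.11) and ACR by -2.75 (-5.65 to 0.15). LDHC differed by -2.14 (-4.71 to 0.43), TBC1D21 by -2.07 (-5.47 to 1.33), ACRBP by -1.96 (-4.39 to 0.46) and PGK2, with 5 prednisolone and 6 control values, by -1.51 (-5.36 to 2.34). The dim further probes differed by -0.31 for CRISP2 and -0.35 for TDRD9. The groups overlapped for all 12 probes. Several of these genes lie under the detection level in prednisolone animals, where a level may be only a bound, so the size of the differences is approximate.

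The Benjamini-Hochberg adjusted p of the limma fit was 0.993 for each of the 10 genes, so 0 of 10 passed 0.05, where 0 of 20894 tested probes (0%) did. Of the 10 genes 2 had an unadjusted p under 0.05, DNAJB8 and GSG1, both with a lower mean in prednisolone animals. That number was 8 of 10 without P31, 0 of 10 without C20, 7 of 10 without both and 9 of 10 with array weights. Leaving out C17 gave 4 of 10, C18 or P30 gave 5, C21 or P32 gave 1, and each of the other 8 animals gave 0. Over all tested probes 3.35% (699 of 20894) had an unadjusted p under 0.05 in the fit reported, and 1.72% had it with a lower mean in prednisolone animals. The count over all probes moved too. It was 1470 of 20766 without P31, 587 of 20519 without C20, 1137 of 20416 without both and 1357 of 20894 with array weights. Leaving out C17 gave 740 of 20794, C18 gave 822 of 20736 and P30 gave 749 of 20823. C21 gave 842 of 20538 and P32 gave 674 of 20805. The other 8 animals gave from 585 of 20728 (P27) to 789 of 20634 (C23). The 10 genes follow nearly the same profile over the same 15 animals, so their differences are not independent of each other. The median difference of the 10 genes was -2.77, against 0.0104 over all tested probes, of which 48.0% were negative. The median half-width of the 95% interval was 0.48 over all probes, far narrower than for any of the 10 brightest probes. An exact Wilcoxon test (two-sided) passed 0 probes after adjustment. It gave an unadjusted p under 0.05 to 610 probes and to 0 of the 10 genes. Its smallest possible exact p with 8 against 7 animals is 0.000311, and at least 130 probes at that p would be needed for any to pass. In the limma fit, 1 of 10 genes had an unadjusted p under 0.05 with the values as deposited (716 of 20894 probes) or with quantile normalization (564 of 20894). With equal medians (672 of 20894 probes) or an eBayes trend (648 of 20894) it was 2 of 10, again DNAJB8 and GSG1. With filled empty cells (643 of 21475) it was 2 of 10 too, but these were DNAJB8 and CRISP2. CRISP2 then differed by -3.90 (-7.59 to -0.21).

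The size of the group difference depended on single animals. Without P31 the difference was larger for each of the 10 genes, down to -5.11 for DNAJB8 and -2.78 for PGK2. Without C20 it was smaller, at -3.38 for DNAJB8, -1.23 for TBC1D21 and -0.65 for PGK2. The sign stayed negative for the 10 genes in each of the 15 fits that left out 1 animal. Among the list genes, differences were negative in 20 of 21 tested acrosome genes (median -1.53), 19 of 23 genes of spermatid chromatin and tail (median -1.77), 14 of 16 piRNA and Tudor genes (median -0.74), 9 of 12 chaperones (median -1.09) and 9 of 11 metabolic isoforms (median -0.20), and 0 passed the adjusted test in any list. Over all tested probes 48.0% of differences were negative. The means of these lists correlated with the germ-cell profile at 0.73 for metabolic isoforms up to 0.996 for spermatid chromatin and tail. The lists were also drawn up with earlier results known, so their signs are not independent of the 10 genes. Other lists were mixed or positive, with 4 of 6 Leydig markers positive (median 0.13), 5 of 8 spermatogonial markers positive (median 0.16), 5 of 10 Sertoli markers positive (median -0.0074), 10 of 11 hepatocyte markers positive (median 0.97), 3 of 10 thymocyte markers positive (median -0.23) and 2 of 5 epididymis markers positive (median -0.33). PRM1 differed by -5.03 and TNP1 by -4.56. Muscle markers had a median difference of -0.0556, with 12 of 15 negative.

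**Figure D5:**
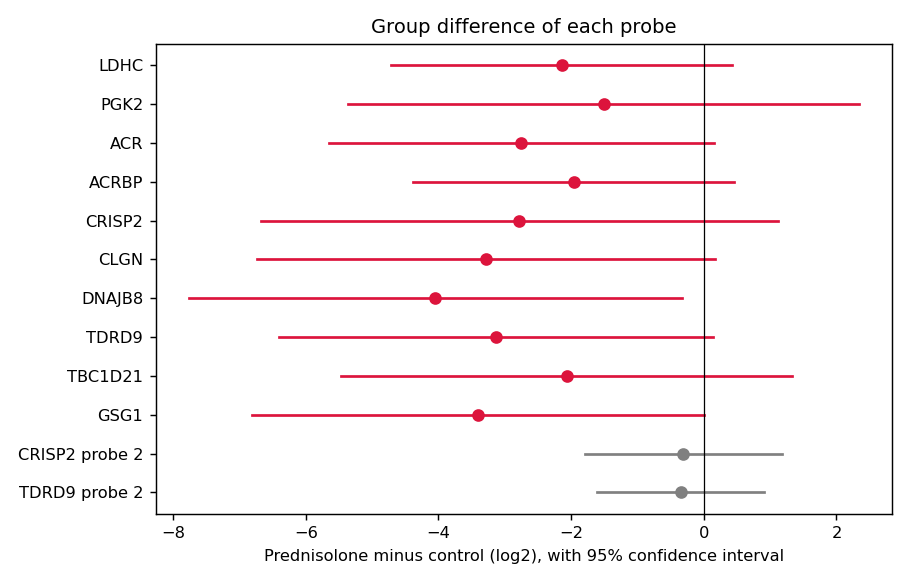
Difference of mean scaled log2 intensity, prednisolone minus control (horizontal axis), for the brightest probe of each of the 10 genes (red) and for the further probes of CRISP2 and TDRD9 (grey), with 95% confidence intervals from limma as bars. All points lie left of 0, from -4.05 for DNAJB8 to -0.31 for the further CRISP2 probe, and all bars except those of DNAJB8 and GSG1 cross 0.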

How the data were processed

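Total RNA of 8 prednisolone and 7 control muscle samples was measured with 1 array per animal. The table deposited by the authors gives a linear intensity for each spot, and per the design text it derives from a background-subtracted, detrended signal of Agilent Feature Extraction. Per the file headers, the scanner output of the prednisolone arrays comes from version 9.5.1.1, and R 2.11.1 is named in the submitters' processing notes. The scaling between arrays is not given in the sources used. On the prednisolone arrays the table followed the log2 of the scanner's processed intensity with a lowest correlation of 0.9998 across spots. Scanner output of controls was not used here. Between 72.1% and 87.4% of the 42990 spots had a value. On the prednisolone arrays, empty cells matched the spots the scanner had not found, and this was not checked on the control arrays.

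Log2 values of each array were shifted to a shared 75th percentile, taken over the 14324 probes measured on all arrays, and spots of a probe were averaged. A probe with at least 3 values per group was tested (20894 of 21475) with lmFit and eBayes of limma 3.58.1 (R 4.3.3), with no trend and no covariates, on all 15 arrays, with Benjamini-Hochberg adjustment over these probes and a threshold of 0.05. The fit was tested on simulated data. Intervals are 95% confidence intervals. The number of arrays limits the precision, and the limma p-values set each group difference against the spread between these animals. Names came from gene identifiers in the RefSeq gene table for 9927 probes, accessions for 3399, array descriptions for 3899, symbols for 297 and synonyms for 87, and 3866 stayed unnamed. A gene outside the 10 was represented by its brightest probe. Probe, promoter and protein sequences and genome positions were not used here.

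The 10 genes, the lists and the naming rule were chosen with earlier results of these data known. The rule named all 10 genes, the relatives LDHA, LDHB, PGK1, CANX and DNAJB6, PRM1 and TNP1, the 2 complete genes with the widest and the 1 with the narrowest range in each list, the 6 probes most like the mean profile and the gene most like each member. CALR, DAZL and genes below background were named in addition after their values were seen. Alternatives covered scaling, empty cells, complete probes only, array weights, an eBayes trend, a Wilcoxon test, the mean of all probes of a gene, leaving out animals, and the scanner signals.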

Additional observations from a re-analysis of the deposited data

Results flagged for a closer look

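Dixon's ratio was examined for 24 groups, each of the 12 probes in prednisolone and in control animals where a group had 4 to 10 values. Chance alone exceeds the critical value in about 1 of 20 groups, and 1 did so here. The dim further probe of TDRD9 stood at 3.02 in P31, far from the other 3 prednisolone values, which lay between 1.35 and 1.42, so that the gap took up 0.956 of the range. The probe was well above background on 0 of 8 prednisolone arrays, P31 included, and the brighter TDRD9 probe was also highest in P31 among prednisolone animals, at 11.64.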

How the results depend on the processing

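The count of probes passing the adjusted test was 0 in the fit reported and ran from 0 to 1 when 1 animal was left out, with 1 without C23 and 1 without P31. Without C20 and P31 together it was 1. None was a member gene, since the smallest adjusted p of any member over all settings was 0.653. The median correlation between members was 0.94 without C20 and P31 and lay between 0.95 and 0.97 in the other 20 settings. The median group difference of the 10 genes ran from -3.84 to -2.08 over 25 alternatives, and each of the 10 genes kept its negative sign in all fits that gave it a value. The mean of both probes moved CRISP2 to -1.68 and TDRD9 to -2.06. With array weights, PGK2 was at -2.34 and TBC1D21 at -3.18. With empty cells at the lowest value of the array, LDHC was at -1.43 and CRISP2 at -3.90. The sign turned for the further CRISP2 probe, to 0.11 without C20 and 0.0144 without P25, within a range down to -0.67 (without P31), and for the further TDRD9 probe, to 0.0822 without C20, within a range down to -0.76 (without P31), all near background. Over the prednisolone arrays the median range of the genes was 9.94 with the scanner's processed signal and 5.52 with normexp correction. The lowest normexp values (1st percentile, log2) differed between arrays, from 5.80 in P31 to 10.46 in P29, whereas those of the processed signal lay between 0.96 and 1.54, and under normexp LDHC, PGK2 and ACR were highest in P29. No paired analysis was possible because the groups share no animal numbers. A fit with slide as a block was not run, since the slides of the controls were not analysed here.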
